A study of Bos taurus with 2 samples.

Results

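Mitotic SOX2-positive progenitors were 937 of 4437 barcodes in single-cell RNA sequencing of bovine embryos collected 25 days into development. Members were chosen by their own counts: a barcode needed at least 1000 UMI (unique molecular identifiers, each 1 captured transcript) and 500 detected genes, at least 1 UMI of SOX2, and at least 5 UMI in sum over 10 genes of cell division: MKI67, TOP2A, CENPF, CENPE, ASPM, KIF11, CDK1, HMMR, TPX2 and NUSAP1. Of 4159 barcodes past the limits on UMI and genes, 2357 held SOX2, and the members were 390 in replicate 1 and 547 in replicate 2. They were set against the 544 SOX2-positive barcodes in which the 10 genes summed to 0, here called sum 0 barcodes (212 in replicate 1 and 332 in replicate 2). A further 876 SOX2-positive barcodes had a sum of 1 to 4.

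A dividing cell copies its DNA in S phase, and in mitosis it condenses the copied chromosomes, attaches them to a spindle of microtubules through their kinetochores, and then separates them and cleaves. Cyclins and the kinases they activate drive entry into mitosis, a checkpoint holds separation back until the kinetochores are attached, and the anaphase-promoting complex then destroys securin and the cyclins. In the early neural tube the SOX2-expressing neuroepithelial progenitors divide at the apical surface, and cells that leave the cycle become neurons.

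Both libraries came from chimeras of bovine embryos and bovine embryonic stem cells. Papain released the cells, which passed a sort of unstated gate before 10x Genomics 3′ sequencing. The 2 replicates carry the same labels, with no treatment or control group, and nothing says whether they came from separate embryos or pools. The p-values therefore measure only how unevenly the groups differ from library to library, a spread that may be technical. The model takes out the general difference between the libraries. The comparison is therefore within libraries, between barcodes sorted by their own transcripts.

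Replicates 1 and 2 held 1973 and 2464 barcodes with 11182089 and 15427708 UMI in all. Members had a median of 6117 and 6626 UMI, against 5992 and 7606 UMI in sum 0 barcodes. To keep depth equal, barcodes of both kinds were drawn in equal number within 9 bands of total UMI and each library, which gave 194 and 330 of each kind, and their counts were summed per library. Levels of single genes are normalised CPM (UMI of a gene scaled to a fixed library total) of these sums. Log2 fold changes set members over sum 0 barcodes. Levels summed over a list were scaled by total UMI alone, without the normalisation between sums. The libraries shared 6 barcode sequences, of which 1 was a member in replicate 2. A doublet caller marked 0.168% of barcodes, too few to count as working, so barcodes that hold a pair of cells remain among the members.

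The rule genes describe the members and were given no test. CENPF, a kinetochore protein of G2 and mitosis, stood at 989 and 1018 CPM in members of replicates 1 and 2. TOP2A, the topoisomerase that untangles copied DNA, stood at 455 and 446 CPM, and MKI67, the Ki-67 proliferation marker, at 204 and 169 CPM. HMMR, a spindle protein, stood at 57.8 and 74.5 CPM. All 10 were 0 in sum 0 barcodes by the rule. SOX2, the neural progenitor transcription factor, was at 404 and 399 CPM in members and at 415 and 422 CPM in sum 0 barcodes, so the SOX2 condition gave close levels on both sides. The sum over the 10 genes had a median of 14 and 15 UMI per member and reached 189 and 169 UMI.

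At the edge of the rule, 27 and 37 barcodes had a sum of 5 and were members, and 42 and 56 barcodes had a sum of 4 and were not. Over 10 mitotic markers outside the rule (CCNB1, CCNB2, CCNA2, PLK1, AURKA, AURKB, BUB1, UBE2C, CDC20 and KIF2C), the barcodes with a sum of 5 had 165 and 182 CPM in sum. Those with a sum of 4 had 117 and 170 CPM. In replicate 2 the values just inside and just outside the rule were near each other.

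Members were 38.8% of SOX2-positive barcodes in replicate 1 (exact Clopper-Pearson 95% interval 35.8 to 41.9%) and 40.4% in replicate 2 (37.8 to 43.1%), intervals that cover counting error only. The share depended on depth. Among bands with at least 10 SOX2-positive barcodes it was 13.0% and 24.2% at 1000 to 2000 UMI, highest at 6000 to 8000 UMI with 51.6% and 55.5%, and 33.1% and 32.8% at 8000 to 12000 UMI. The bands from 16000 UMI held 6 and 4 such barcodes in all, of which 5 and 3 were members. With each barcode thinned to 2000 UMI, 22.4% and 23.9% met the rule. The deposited table held no barcode with more than 3999 genes. In the 6000 to 8000 UMI band, 11.2% and 5.11% of members had 3800 genes or more, against 0% of sum 0 barcodes in each library. At 8000 to 12000 UMI it was 38.8% and 38.6% of members, against 29.6% and 23.8% of sum 0 barcodes. At 12000 to 16000 UMI it was 75% of members in each library, against 47.4% and 88.5% of sum 0 barcodes, so the order differed between libraries there. The part of this ceiling in the lower share of deeper barcodes was not tested.

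**Figure D1:**
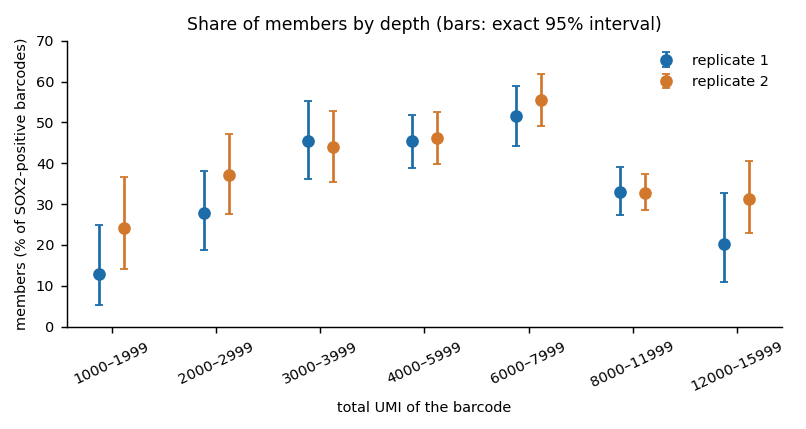
Members as a percentage of SOX2-positive barcodes (y axis) in bands of total UMI (x axis), with 1 point per library and exact 95% intervals as bars. Bands with fewer than 10 barcodes in a library are not drawn, and among those drawn both libraries are highest at 6000 to 8000 UMI, at 51.6% and 55.5%.

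The word mitotic could be checked with the 10 mitotic markers outside the rule. Summed, they had 576 and 691 CPM in members, against 67.3 and 39.5 CPM in sum 0 barcodes. At least 1 of their UMI was present in 83.0% and 86.1% of the drawn members, against 35.1% and 23.9% of sum 0 barcodes, and after thinning to 2000 UMI in 57.2% and 61.9% of members, against 13.9% and 9.52%. The share in sum 0 barcodes holds any free RNA from lysed dividing cells, whose amount was not measured. Progenitor markers went different ways. NES, an intermediate filament of neuroepithelium, stood at 822 and 760 CPM in members and 809 and 833 CPM in sum 0 barcodes. SOX1 had 69.2 and 55.7 CPM in members and 40.2 and 39.7 CPM in sum 0 barcodes. PAX6 was higher in members, FABP7 and VIM were lower, and HES5 differed in direction between libraries. Some defining markers of other cell types, such as PTPRC and CSF1R of blood, CDH5 of endothelium, ALB of liver and GCM1 and CDX2 of trophoblast, were at 0 UMI in the drawn members, but none of these cell types' marker lists was at 0 as a whole.

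Across 11634 genes tested with edgeR's quasi-likelihood test, 1358 (11.7%) were higher and 1451 (12.5%) lower in members at an adjusted p below 0.05, with a median log2 fold change of -0.01. SOX2 and the 10 rule genes were left out of the adjustment. List counts below are to be read beside the 11.7% and 12.5% of all genes. The remaining genes had no part in the rule, but they were counted in the same barcodes that the rule sorted, so the counts below describe what travels with the 10 genes. Of 98 tested genes in 4 lists of mitotic genes outside the rule, 93 were higher in members, 0 were lower and 5 were not called.

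Mitotic entry genes rose in 22 of 23 tested, with a median log2 fold change of 2.53. CCNB2, a B-type cyclin that activates CDK1, had 91.3 and 97.7 CPM in members, against 8.68 and 5.73 CPM in sum 0 barcodes (log2 fold change 3.80, SE 0.28, edgeR adjusted p = 1.1e-11). CCNA2, the cyclin of S phase and G2, had 44.9 and 44.8 CPM in members and 4.73 and 1.76 CPM in sum 0 barcodes. AURKA, the centrosomal kinase, had 36.5 and 35.4 CPM in members and 3.16 and 3.09 CPM in sum 0 barcodes. The groups did not overlap for any of these, which with 2 sums on each side is weak evidence by itself. CCNB1, the other main mitotic cyclin, had 98 UMI in the drawn members and 3 in the sum 0 barcodes, a ratio of 33.1 (exact 95% interval 10.98 to 163, counting error only). PKMYT1, a kinase that holds CDK1 inactive, was the gene of the list that did not pass, at 23.6 and 20.3 CPM in members and 11.8 and 14.5 CPM in sum 0 barcodes (edgeR adjusted p = 0.081).

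Spindle and cytokinesis genes rose in 31 of 32, with a median log2 fold change of 2.95, the highest median among the lists. KIF4A, a chromosome-bound kinesin, had 69.2 and 73.6 CPM in members, against 3.16 and 1.32 CPM in sum 0 barcodes (log2 fold change 5.13, SE 0.34, edgeR adjusted p = 6.8e-14). The sum 0 values of KIF4A rest on 4 and 3 UMI, and without replicate 2 its log2 fold change was 3.90. That value is from log2 CPM with a prior count of 2, which pulls down ratios of few counts. It is not on the scale of 5.13. DLGAP5, which stabilises kinetochore fibres, had 76.9 and 85.4 CPM in members and 2.37 and 3.53 CPM in sum 0 barcodes (log2 fold change 4.70). CEP55, which acts at the midbody in the final cut between daughter cells, had 76.9 and 80.2 CPM in members and 6.31 and 2.65 CPM in sum 0 barcodes (log2 fold change 4.28). Every library's member sum was above both sum 0 values for these genes, again with only 2 sums on each side. SPAG5 (log2 fold change 4.11), KIFC1 (3.84) and CKAP2 (3.79), which organise spindle microtubules and poles, also rose. NUMA1, a spindle pole protein that is nuclear between divisions, was not called, with 50.2 and 41.9 CPM in members and 39.4 and 45.9 CPM in sum 0 barcodes.

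**Figure D2:**
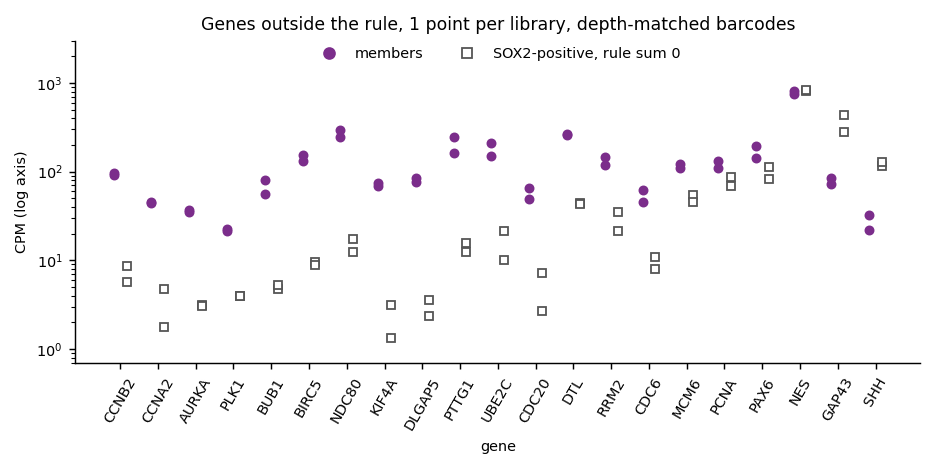
CPM on a log axis (y) for 21 genes outside the rule (x), with 1 point per library for members (filled circles) and for sum 0 barcodes (open squares), depth-matched. The mitotic genes from CCNB2 to CDC20 sit far above the sum 0 values in both libraries, NES overlaps between the groups, and GAP43 and SHH are lower in members.

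At the kinetochore, 26 of 28 tested genes rose, with a median log2 fold change of 2.05. NDC80, which binds the microtubule, had 294 and 249 CPM in members, against 17.4 and 12.3 CPM in sum 0 barcodes (log2 fold change 4.22, SE 0.17, edgeR adjusted p = 4.7e-19). CENPA, the histone H3 variant that marks centromeres, had 40.3 and 53.7 CPM in members and 3.16 and 2.65 CPM in sum 0 barcodes (log2 fold change 4.07). CENPC, which links CENPA to the outer kinetochore, was level, with 178 and 178 CPM in members and 174 and 152 CPM in sum 0 barcodes, and it and MIS12 were the members of the list that did not pass.

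Checkpoint and chromosomal passenger genes rose in 14 of 15, with a median log2 fold change of 2.52. BIRC5, or survivin, a passenger subunit, had 132 and 156 CPM in members and 9.47 and 8.82 CPM in sum 0 barcodes (log2 fold change 4.01, SE 0.21, edgeR adjusted p = 1.9e-16). The checkpoint kinases TTK and BUB1 rose with log2 fold changes of 3.82 and 3.76. BUB3, a partner of BUB1, changed far less (log2 fold change 0.57, edgeR adjusted p = 8.2e-04). It had 161 and 153 CPM in members and 122 and 93.9 CPM in sum 0 barcodes. MAD1L1 was the gene not called.

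Genes of chromosome structure split by complex. Of 20 tested genes of condensin, cohesin and the separase pathway, 15 rose and 0 fell. Condensin SMC4 had 336 and 349 CPM in members, against 102 and 90.8 CPM in sum 0 barcodes (log2 fold change 1.85). PTTG1, or securin, which restrains separase until anaphase, had 161 and 247 CPM in members and 15.8 and 12.3 CPM in sum 0 barcodes (log2 fold change 3.96, SE 0.19, edgeR adjusted p = 4.2e-17). CDCA2, which recruits a phosphatase to chromosomes as mitosis ends, rose with a log2 fold change of 3.98. Cohesin itself moved little: SMC3 had 196 and 232 CPM in members and 209 and 268 CPM in sum 0 barcodes, and SMC3, STAG1, STAG2 and PDS5B were not called, while RAD21 and SMC1A rose with log2 fold changes of 0.38 and 0.39.

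The anaphase-promoting complex showed the same kind of split. Of 19 tested genes, 6 rose and 1, the subunit ANAPC13, fell (log2 fold change -0.50). The activator CDC20 had 48.7 and 65.9 CPM in members, against 7.10 and 2.65 CPM in sum 0 barcodes (log2 fold change 3.75, SE 0.34, edgeR adjusted p = 1.3e-09). UBE2C, the enzyme that hands ubiquitin to the complex, had 150 and 211 CPM in members and 21.3 and 10.1 CPM in sum 0 barcodes (log2 fold change 3.68). FBXO5, an inhibitor of the complex, rose with a log2 fold change of 3.02. Its core subunits were nearer level, with CDC16 at 53.3 and 55.7 CPM in members and 53.6 and 52.9 CPM in sum 0 barcodes. FZR1, the activator used in G1, was not called, at 22.1 and 15.1 CPM in members and 14.2 and 12.3 CPM in sum 0 barcodes. CDCA3, a cell-cycle protein that promotes destruction of the WEE1 kinase, completed the 15 named rises with 58.6 and 70.0 CPM in members and 2.37 and 3.53 CPM in sum 0 barcodes (log2 fold change 4.39).

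Genes of DNA replication were also higher, by less. Of 48 tested S phase genes 36 rose and 0 fell, with a median log2 fold change of 0.93. DTL, which marks the licensing factor CDT1 for destruction, had 262 and 263 CPM in members, against 44.2 and 42.8 CPM in sum 0 barcodes (log2 fold change 2.59, edgeR adjusted p = 8.5e-17). CDC6, which loads the replicative helicase, had 45.7 and 62.7 CPM in members and 7.89 and 11.02 CPM in sum 0 barcodes (log2 fold change 2.50). RRM2, a subunit of the enzyme that makes deoxynucleotides, rose with a log2 fold change of 2.15. The helicase subunits divided: MCM6, MCM3 and MCM4 rose with log2 fold changes of 1.25, 0.65 and 0.58, while MCM2, with 74.6 and 68.8 CPM in members and 69.4 and 74.9 CPM in sum 0 barcodes, MCM5 and MCM7 did not pass.

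DNA repair genes rose in 18 of 24 tested, with 0 lower and a median log2 fold change of 1.24. BRCA1, of homologous recombination, had 220 and 247 CPM in members and 33.1 and 26.5 CPM in sum 0 barcodes (log2 fold change 3.01). FANCD2 rose with a log2 fold change of 2.96, and the damage kinases ATM and ATR were not called. Among 25 tested genes of nuclear architecture 15 rose and 1 fell. HMGB2, a chromatin-bending protein, had 673 and 715 CPM in members and 232 and 216 CPM in sum 0 barcodes (log2 fold change 1.64). H3-3A, a histone H3.3 gene that is expressed throughout the cycle, was the gene that fell (log2 fold change -0.55), with 1093 and 1200.4 CPM in members and 1491 and 1889.6 CPM in sum 0 barcodes.

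Genes of G1 and of leaving the cycle moved both ways, 4 higher and 6 lower of 21 tested. CDKN1C, the p57 inhibitor of cyclin-dependent kinases, had 65.4 and 85.9 CPM in members, against 144 and 138 CPM in sum 0 barcodes (log2 fold change -0.87, edgeR adjusted p = 8.0e-06). The G1 cyclins CCND2 and CCND1 fell with log2 fold changes of -0.73 and -0.38. RBL1, or p107, rose with a log2 fold change of 1.23, and its relative RBL2 was not called.

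**Figure D3:**
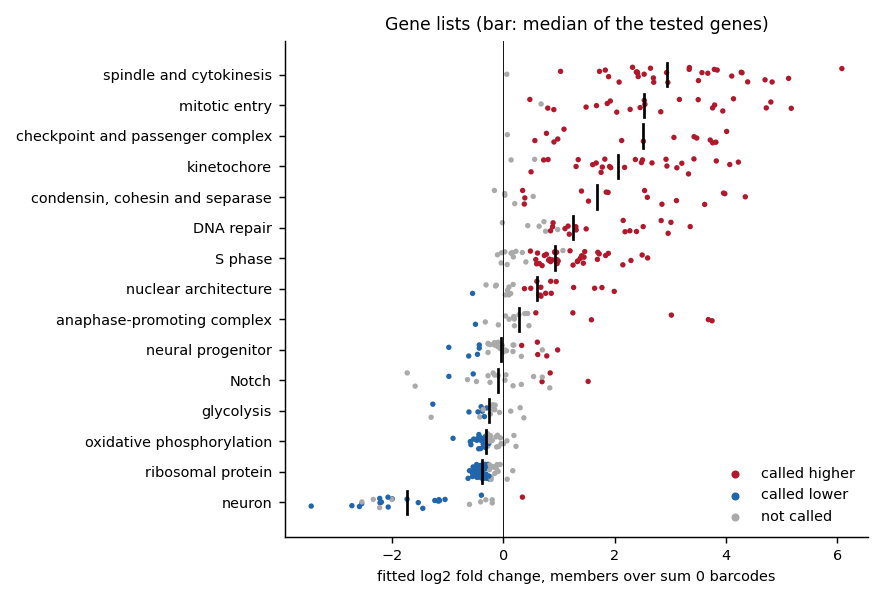
Fitted log2 fold change of members over sum 0 barcodes (x axis) for each tested gene of 15 lists (y axis), coloured by call at an edgeR adjusted p below 0.05, with a bar at each list's median. Medians run from 2.95 for spindle and cytokinesis genes to -1.73 for neuron genes.

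Members were not uniform. They were ordered by their UMI of the 10 rule genes per 1000 UMI of the barcode, a measure that belongs to the rule, so what follows is description. All members entered, not only the drawn ones, and levels in these classes were scaled by total UMI alone. There were 124 members below 1 per 1000, 223 at 1 to 2, 333 at 2 to 4, 216 at 4 to 8 and 41 at 8 or more. The 10 mitotic markers outside the rule summed to 197 and 236 CPM in the lowest of these classes and to 2347 and 2376 CPM in the highest. CCNB1 was at 0 and 1.28 CPM in the lowest class and at 176 and 162 CPM in the highest. The S phase list followed another course. It had 3154 and 3762 CPM in the lowest class, its top values of 4960 CPM at 1 to 2 per 1000 in replicate 1 and 4278 CPM at 2 to 4 in replicate 2, and 2897 and 3592 CPM in the highest class. The rule thus took in barcodes rich in S phase transcripts with few of the late mitotic ones, and mitotic describes the upper classes more closely than the whole. The lowest class also had the deepest barcodes, with a median of 9597 and 10003 UMI, since a sum of 5 UMI falls below 1 per 1000 only in a deep barcode. Its ribosomal protein transcripts stood at 206498 and 204382 CPM, against 85454 to 129039.5 CPM in the 3 middle classes.

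**Figure D4:**
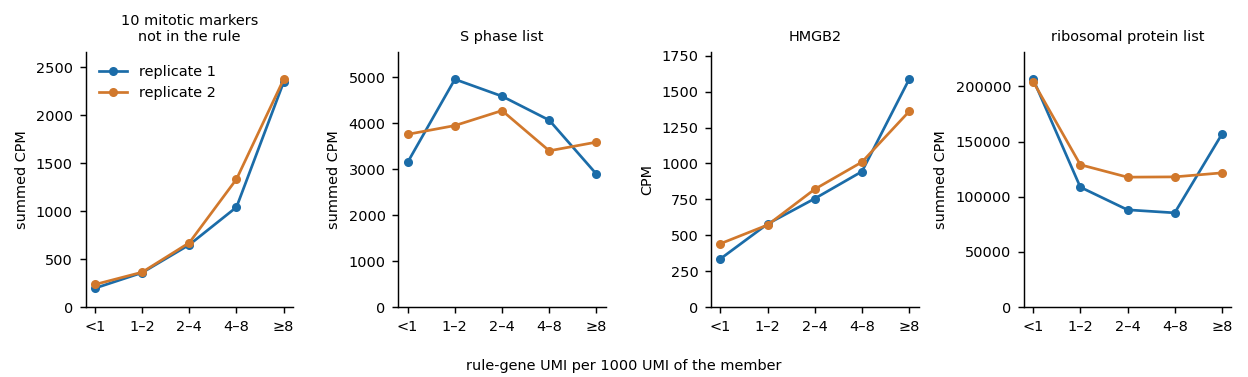
Summed CPM in members (y axes) by their rule-gene UMI per 1000 UMI (x axis) for 10 mitotic markers outside the rule, the S phase list, HMGB2 and the ribosomal protein list, with 1 line per library. The mitotic markers climb to 2347 and 2376 CPM, while the S phase list is highest in the middle classes.

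Neural progenitor genes were balanced, with 5 higher and 5 lower of 28 tested and a median log2 fold change of -0.04. PAX6, a transcription factor of the intermediate and ventral neural tube, had 193 and 141 CPM in members, against 112 and 82.4 CPM in sum 0 barcodes (log2 fold change 0.78, SE 0.12, edgeR adjusted p = 8.4e-06). SOX1 and LIN28A rose with log2 fold changes of 0.62 and 0.98. FABP7, a fatty acid binding protein of radial glia, had 61.6 and 55.7 CPM in members and 93.9 and 130 CPM in sum 0 barcodes (log2 fold change -0.98, edgeR adjusted p = 1.0e-05), and the filament gene VIM fell with a log2 fold change of -0.46. HES5, a Notch target, differed in direction between libraries, at 89.0 CPM in members and 219 CPM in sum 0 barcodes of replicate 1, and 185 CPM in members and 103 CPM in sum 0 barcodes of replicate 2.

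Progenitors divide at the apical surface, and genes of polarity and junctions were mixed, 6 higher (23.1%) and 4 lower (15.4%) of 26. SHROOM3, which constricts the apical surface, had 585 and 523 CPM in members and 385 and 320 CPM in sum 0 barcodes (log2 fold change 0.66). GPSM2, or LGN, which orients the spindle, had 175 and 173 CPM in members and 110 and 123 CPM in sum 0 barcodes (log2 fold change 0.57, edgeR adjusted p = 3.3e-04). PARD3 and CDH2 were not called. Of 21 tested Notch genes 3 rose (HEY2, NRARP and the ligand JAG1) and 2 fell (the coactivators MAML2 and MAML3). These shares, 14.3% and 9.52%, were near the 11.7% and 12.5% of all genes tested.

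Several floor plate genes were lower in members. Of 10 tested ventral genes 5 fell and 1, HHIP, rose. SHH, the ventral morphogen of the floor plate, had 22.1 and 32.1 CPM in members, against 115 and 128 CPM in sum 0 barcodes (log2 fold change -2.12, SE 0.17, edgeR adjusted p = 4.1e-12). CORIN fell with a log2 fold change of -1.77, and FOXA2 with -0.40. On the dorsal side 3 of 13 tested genes rose (WNT3A, ZIC1 and ZIC2) and 0 fell. PAX3 had 175 and 177 CPM in members and 149 and 72.3 CPM in sum 0 barcodes and was not called (log2 fold change 0.78, edgeR adjusted p = 0.090). Of the genes of anterior position 0 of 5 tested were called, and of 30 HOX genes 4 were tested and 1, HOXB2, was called, lower.

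Read the other way, the share of members among SOX2-positive barcodes depended on the regional gene a barcode held. After standardising over bands of UMI, members were 45.3% and 53.3% of barcodes with a UMI of PAX6, against 33.1% and 32.4% of those without. They were 44.9% and 54.3% of barcodes with PAX3, against 34.9% and 34.4% of those without. With SHH they were 34.3% and 32.0%, against 41.8% and 44.4% without. The direction was the same in both libraries for these 3 genes and for DLL1 and FOXA2, and opposite for OTX2, for any HOX gene, for HES5, for ELAVL3, for GFP and for the R-spondins. A UMI is missed in many cells that express a gene, so these groups overlap in kind, and no test was made.

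**Figure D5:**
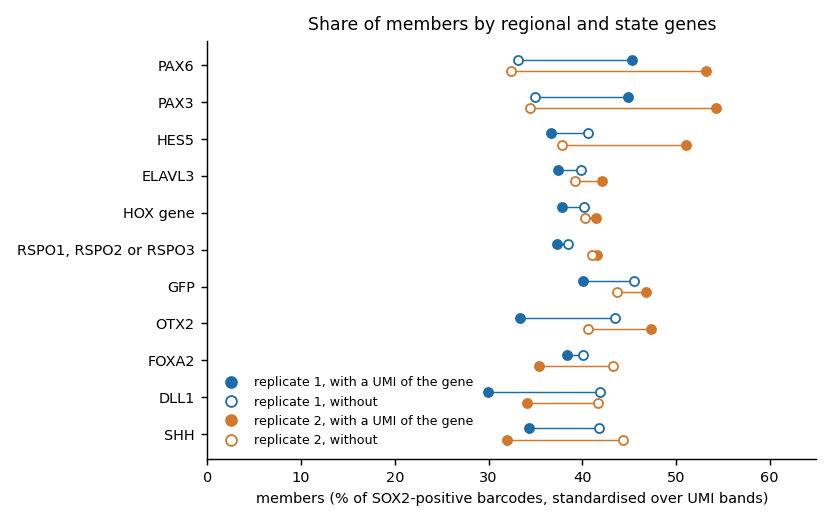
Members as a percentage of SOX2-positive barcodes, standardised over bands of UMI (x axis), for barcodes with (filled) and without (open) a UMI of each gene (y axis), per library. PAX6 and PAX3 have the higher share with the gene in both libraries, and SHH and DLL1 the lower.

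Neuronal genes were lower in members. Of 29 tested, 19 fell and 1, DPYSL3, rose, with a median log2 fold change of -1.73. GAP43, a growth cone protein, had 72.3 and 84.2 CPM in members, against 277 and 433 CPM in sum 0 barcodes (log2 fold change -2.19, edgeR adjusted p = 2.3e-14). TUBB3, neuronal tubulin, had 70.0 and 94.8 CPM in members and 193 and 181 CPM in sum 0 barcodes, and DCX, a microtubule protein of migrating neurons, fell with a log2 fold change of -1.45. Without barcodes that held more than 2 UMI in sum of ELAVL3, ELAVL4 and DCX, an alternative chosen after seeing the data, the median of the list was 0.03, and 2 of 21 tested genes fell and 1 rose. The 3 genes that picked those barcodes are themselves in the list.

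Of 12 tested proneural genes 4 fell (INSM1, BTG2, SOX4 and SOX11) and 1, JAG1, rose. DLL3 and HES6 were not called, with HES6 at 22.8 and 48.0 CPM in members and 168 and 95.7 CPM in sum 0 barcodes. NEUROG2, NEUROD1 and EOMES were at 0 UMI in the drawn members. NEUROG2 was also rare in the drawn sum 0 barcodes, held by 2 of 194 and 1 of 330. Among all members of replicate 2 it was held by 1 of 547. Counts this low do not show a difference.

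The 10 named falls included several genes of axons and adhesion. DCC, the netrin receptor of growing axons, had 12.9 and 19.5 CPM in members, against 235 and 150 CPM in sum 0 barcodes (log2 fold change -3.43, SE 0.48, edgeR adjusted p = 0.022). NELL1, a secreted protein, had 3.80 and 3.26 CPM in members and 77.3 and 58.2 CPM in sum 0 barcodes (log2 fold change -4.22). PPFIA2, a presynaptic scaffold, fell with a log2 fold change of -3.21. These 3 kept their call under every alternative that gave a test, but their size moved. Without the barcodes rich in neuronal UMI the log2 fold changes were -2.05 for DCC, -2.09 for NELL1 and -2.43 for PPFIA2. Without barcodes that held floor or roof plate UMI they were -4.64 for DCC and -5.43 for NELL1, and PPFIA2 was at 0 UMI in members. CNTNAP5, a neuronal adhesion protein, had a log2 fold change of -3.94, which was -0.23 without the barcodes rich in neuronal UMI (edgeR adjusted p = 0.77).

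The other named falls each lost their call under at least 1 alternative. CNTN5 (log2 fold change -4.03), PCDH9 (-3.30) and GRIK1 (-3.08) are genes of axonal adhesion and glutamate signalling. Under other draws of the barcodes they lost their calls, with edgeR adjusted p up to 0.14 over those draws. Over all alternatives with a test, CNTN5 had no call in 6 of 17, PCDH9 in 4 of 17 and GRIK1 in 3 of 16. Their smallest falls over these alternatives were log2 fold changes of -1.65, -1.49 and -1.82. IGFBP5 (-3.40), which binds insulin-like growth factors, lost its call without barcodes that held floor or roof plate UMI (edgeR adjusted p = 0.21), where 65 and 103 barcodes of each kind remained and the log2 fold change was close to the main one at -3.30. TTR (-3.55), the thyroid hormone carrier, lost its call without the replicate block (edgeR adjusted p = 0.16). S100G (-5.31), a calcium-binding protein, rested on replicate 1, where it had 3.04 CPM in members and 226 CPM in sum 0 barcodes. In replicate 2 it had 1.22 CPM in members and 4.85 CPM in sum 0 barcodes. Under the other 3 draws S100G fell below the filter on low counts and was not tested. Of 8 alternatives that gave it a test, 3 gave no call.

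Genes of protein synthesis and energy were lower by small amounts. Of 81 ribosomal protein genes tested 65 fell and 0 rose, with a median log2 fold change of -0.38. In sum they had 135910 and 151782 CPM in members, against 158947 and 189709 CPM in sum 0 barcodes. Of 41 genes of oxidative phosphorylation 21 fell and 0 rose (median -0.32), and of 20 glycolytic genes 7 fell and 0 rose (median -0.27). Without the replicate block 0 of the ribosomal genes and 4 of the oxidative phosphorylation genes were called lower, and DESeq2 called 54 and 2. The 13 mitochondrially encoded genes summed to 5393 and 4579 CPM in members and 4796 and 3495 CPM in sum 0 barcodes, higher in members of both libraries.

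GFP, a reporter whose carrier the labels do not name, had 1470 and 2025 CPM in members, against 2815 and 3171 CPM in sum 0 barcodes (log2 fold change -0.79, SE 0.10, edgeR adjusted p = 9.7e-08). All 4 values were separate between groups, which with 2 sums on each side is weak evidence by itself. Over 17 alternatives the log2 fold change ran from -1.05 to -0.70 and the adjusted p stayed at or below 0.032. The share of barcodes with a GFP UMI was closer, 74.9% and 75.2% of members and 77.0% and 81.9% of sum 0 barcodes after thinning. Within the members GFP was highest in the class with the fewest rule-gene UMI, at 2269 and 2737 CPM, the class that also had the most ribosomal protein transcripts. These class values cover all members and were scaled by total UMI alone, unlike the 1470 and 2025 CPM of the drawn members.

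Markers of other cell types were lower in members for some lists and higher or mixed for others. Of 9 tested mesenchyme markers 6 fell, and the whole list of 13 summed to 232 and 385 CPM in members, against 380 and 780 CPM in sum 0 barcodes. Of 6 tested neural crest markers 4 fell, with the list of 10 at 26.0 and 43.0 CPM in members and 92.3 and 106 CPM in sum 0 barcodes. Of the endoderm markers, TTR and APOA1 fell of 3 tested, with the list of 12 at 187 and 305 CPM in members and 296 and 519 CPM in sum 0 barcodes. Erythroid markers summed to 731 and 615 CPM in members and 773 and 719 CPM in sum 0 barcodes. Of 4 tested cardiomyocyte markers 2 rose, with the list of 11 at 127 and 119 CPM in members and 84.5 and 83.5 CPM in sum 0 barcodes. The 12 endothelial and blood markers summed to 35.4 and 30.6 CPM in members and 17.2 and 21.2 CPM in sum 0 barcodes, with neither of the 2 tested called. Of 4 tested trophoblast markers 1 rose, and the 14 in the table summed to 629 and 623 CPM in members and 580 and 638 CPM in sum 0 barcodes, differing in direction between libraries. The part of these cells or of free RNA in the genes that differed was not tested.

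Last, the members were set against 468 barcodes with no SOX2 UMI that met the same sum (229 in replicate 1 and 239 in replicate 2), with 192 and 220 of each drawn. Of 10497 genes tested with edgeR, 146 (1.39%) were higher and 385 (3.67%) lower in members, 5.06% in all. With 4 sums the model took the spread of a typical gene from the other genes rather than from its own values. DESeq2 called 7 higher and 17 lower, so single calls here are weak. Absence of a SOX2 UMI does not show absence of SOX2, and these barcodes were shallower before the draw, with medians of 4436 and 4699 UMI.

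The division programme was close on both sides. Both sides were chosen by the same limit on the rule genes and matched by UMI. Close levels of other division genes therefore cannot show whether division differs with SOX2. Of 32 spindle and cytokinesis genes 0 were higher and 2 lower in members, with a median log2 fold change of 0.06, and of 46 S phase genes 0 were higher and 2 lower, with a median of -0.06. Of 28 neural progenitor genes 9 were higher and 0 lower (median 0.30). ID1, an inhibitor of differentiation factors, had 882 and 1288 CPM in members, against 497 and 503.9 CPM in SOX2-zero mitotic barcodes (log2 fold change 1.09, SE 0.13, edgeR adjusted p = 4.0e-15). IRX5, a patterning factor, had 79.5 and 79.9 CPM in members and 40.2 and 27.6 CPM in SOX2-zero mitotic barcodes (log2 fold change 1.24). HES5 and FGF19 rose with log2 fold changes of 1.22 and 1.13, each with its call lost in 1 of 3 other draws. ID3 rose with 1.11, a call lost under DESeq2 (adjusted p = 0.096) and in edgeR with no matching by UMI (adjusted p = 0.064). Of these 5 genes DESeq2 called ID1 alone, and it gave no adjusted p for IRX5, HES5 and FGF19.

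The named lower genes are known from other tissues and from neurons. S100A2, a calcium-binding protein of epithelia, had 3.53 and 1.63 CPM in members, against 71.3 and 47.5 CPM in SOX2-zero mitotic barcodes (log2 fold change -4.48). PCDH9 and PLXNA2, of neuronal adhesion and axon guidance, fell with log2 fold changes of -2.04 and -1.75. PAGE4 (log2 fold change -6.68), known as a placental and prostatic protein in human, lost its call without the replicate block (edgeR adjusted p = 0.37). Only 6 of the 9 alternatives gave PAGE4 a test, of which 1 gave no call. HBE4, an embryonic globin, had 118 and 4173 CPM in members and 1877 and 6196 CPM in SOX2-zero mitotic barcodes (log2 fold change -2.14), with adjusted p from 0.25 to 0.93 over 9 alternatives. Of 9 tested erythroid markers 8 were called lower, but the libraries went opposite ways: the list of 12 summed to 771 CPM in members and 19825 CPM in SOX2-zero mitotic barcodes of replicate 1, and to 38292 CPM in members and 34283 CPM in SOX2-zero mitotic barcodes of replicate 2. Without globin-rich barcodes the log2 fold change of HBE4 was 0.16 (edgeR adjusted p = 0.75). In 2 members of each library and in 7 and 12 SOX2-zero mitotic barcodes at least 1% of UMI was globin. Mesenchyme markers were lower in 4 of 10.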

How the data were processed

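The deposited table holds unnormalised UMI counts of 17846 genes, and its column prefixes carry the replicate numbers. Per the submitters' processing notes, the tools included Seurat 4.3.0 (R 4.1.2) and Cell Ranger of unnamed version, on build bosTau9. The sources used here do not say how strand and overlapping genes were counted. The members and the gene lists were chosen with earlier results of these data known.

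Barcodes were drawn within bands of UMI and library (seed 1), and summed per group and library. The sums were modelled in edgeR 4.0.16 (R 4.3.3, TMM, filterByExpr, robust glmQLFit) with library as an additive term, because both groups come from the same libraries. Sums of barcodes with a rule sum of 1 to 4 entered the first fit for its estimate of spread (2 residual degrees of freedom). P-values were adjusted by Benjamini-Hochberg over all genes tested, leaving out SOX2 and, in the first comparison, the rule genes. On simulated data for the first comparison (11629 genes), 65% of 2-fold and 94% of 4-fold changes were recovered, with 5 false calls. For the second (10469 genes), 61% and 88% were recovered, with 4 false calls. The simulated counts had the same spread for all genes and, apart from the set changes, equal group levels within each library. They therefore do not show the rate of false calls in the real data.

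Named genes were the 15 largest rises and 10 largest falls among called genes that moved alike in both replicates and averaged 50 CPM or more on the higher side, and 5 each in the second comparison. List members stand as examples. Alternatives used DESeq2 1.42.0, limma 3.58.1 (log2 CPM, prior count 2), other draws and other thresholds. Lists were given no set test.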

Additional observations from a re-analysis of the deposited data

Results flagged for a closer look

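In replicate 2, 5 barcodes held a SOX2 UMI and a rule-gene sum of at least 5 but failed the limits on UMI or genes. They therefore entered no comparison. Replicate 1 had 3 such barcodes.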

How the results depend on the processing

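The number of genes higher in members than in sum 0 barcodes was 1358 and the number lower was 1451. DESeq2's Wald test gave 363 and 443, a limit of 2 SOX2 UMI gave 795 and 872, and drawing without regard to UMI gave 2062 higher. Without the replicate block, which pairs sums from the same library, 858 and 843 were called. Without barcodes holding floor or roof plate UMI 660 and 798 were called, and without those over 2 neuronal UMI 880 and 909, alternatives chosen after seeing the data that also leave fewer barcodes. Against SOX2-zero mitotic barcodes the counts were 146 higher and 385 lower. DESeq2 gave 7 and 17, another draw 79 and 215, a further draw 60 and 233, no replicate block 21 and 106, and no matching by UMI 234 higher. HBE4 reversed to a log2 fold change of 0.16 without globin-rich barcodes. The cause of these shifts was not tested.

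The share of members averaged 39.6% over the libraries. It was 49.8% with a sum of at least 3, 27.4% with a sum of at least 10 and 23.1% after thinning, and 38.8 to 40.4% with either replicate left out. Leaving out a library left no residual degrees of freedom, so it gave values with no test. All 15 named rises kept their call under the 17 alternatives with a test. Without replicate 2 their log2 fold changes ran from 2.53 for CDC20 to 4.81 for SPAG5. These are from log2 CPM with a prior count of 2, so they are not on the scale of the fitted values. Sums held 1091205 to 2454837 UMI over both comparisons, so levels of a few CPM rest on few counts. Of the 14 list counts of 0 in 1 direction against sum 0 barcodes, 11 were also 0 at an unadjusted edgeR p below 0.05, the other 3 were 1, and DESeq2 called 0 genes in all 14.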

Other observations

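Some genes outside the lists were looked at after their values were seen. The linker and core histone genes H1-5, H4C8 and HIST1H2AJ, whose transcripts are made mainly in S phase, rose in members with log2 fold changes of 3.003, 3.13 and 3.59. H4C8 had 87.5 and 84.2 CPM in members, against 14.2 and 7.05 CPM in sum 0 barcodes. Histone genes have near-identical copies between which counting can split reads, so single histone values are uncertain. PCLAF, which binds PCNA at replication forks, had 77.6 and 98.5 CPM in members and 12.6 and 15.9 CPM in sum 0 barcodes. SYT1, a synaptic vesicle protein, had 212 and 199 CPM in members and 654 and 760 CPM in sum 0 barcodes.

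Of 19 tested p53 targets 4 rose (PMAIP1, SESN2, CDKN1A and SESN1) and 1, MDM2, fell. PMAIP1, or NOXA, a promoter of cell death, had 49.5 and 37.8 CPM in members, against 18.9 and 11.02 CPM in sum 0 barcodes (log2 fold change 1.59, edgeR adjusted p = 6.0e-06). Of 23 tested early response and heat shock genes 3 rose (HSPA1A, ATF3 and HSPH1) and 7 fell, among them FOS and JUN with log2 fold changes of -0.42 and -0.35, genes that dissociation can also induce. Of 4 tested cardiomyocyte markers ACTC1 and ACTN2 rose, and of 4 tested trophoblast markers KRT8 rose.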
